A study of Mus musculus with 9 samples.

Results

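The genes described here encode ion exchangers and cotransporters of the kind that fill and buffer the endolymph, taken as the protein-coding genes whose symbol starts with Slc4a, Slc8a, Slc8b, Slc9a, Slc12a, Slc24a or Slc26a and that held 10 or more counts in at least 3 of the 9 libraries. Of 54232 genes in the count tables, 51 protein-coding genes carried such a symbol and 45 met the count limit. These 45 were 10 Slc26a, 10 Slc9a, 9 Slc4a, 7 Slc12a, 5 Slc24a, 3 Slc8a and 1 Slc8b gene. The 6 genes below the limit were Slc12a1, Slc12a3, Slc26a3, Slc4a9, Slc4a10 and Slc9a3. Slc24a2 lay at the limit itself, with 10 or more counts in 3 libraries, all of them null, so that it is a member only through the group in which it is high, and Slc4a10 lay just outside it with 2. Of the 45, 42 are transporters and 3 (Slc9a3r1, Slc9a3r2 and Slc4a1ap) are proteins named for a transporter they bind.

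Each library held RNA of both cochlear ducts from 1 mouse embryo, dissected at E14.5. Matings of Prdm16 cGT/+ mice, kept on the FVB/NJ background, gave 3 WT (+/+), 3 heterozygous (cGT/+, here Het) and 3 null (cGT/cGT) embryos. The cGT allele is a gene trap carried in every tissue of the embryo, so cells outside the duct carry it too. Each null and Het library was set against WT, and null against Het, to ask which of these transporter genes respond to the loss of Prdm16, a transcription factor of Kölliker's organ.

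Endolymph is the potassium-rich fluid of the cochlear duct. Its potassium is loaded into marginal cells of the stria vascularis by the sodium-potassium-chloride cotransporter NKCC1 (Slc12a2) and leaves through a potassium channel made of Kcnq1 and Kcne1, while potassium-chloride cotransporters of the Slc12a family carry chloride and potassium out of cells. Exchangers of the Slc4a, Slc9a and Slc26a families move bicarbonate, protons, chloride and sulfate, and those of Slc8a and Slc24a trade sodium for calcium. At E14.5 the duct is an epithelial tube in which the stria has not matured. In these libraries Kcnq1 stood at 0.907 to 2.33 CPM (counts scaled to the library total, TMM-normalized) and Kcne1 at 1.67 to 3.52 CPM, while Bsnd, the chloride channel subunit barttin of the mature stria, did not exceed 0.102 CPM and Foxi1, a regulator of endolymphatic sac ionocytes, did not exceed 0.335 CPM. Gjb2, the connexin of the cochlear epithelium, stood at 322 to 513 CPM.

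Total counts ranged from 24095322 to 30819118 per library, so that 3 counts, taken as the floor, were 0.0973 to 0.125 CPM, which covers counting error only. Prdm16 itself stood at 184 to 225 CPM in WT, 123 to 151 in Het and 19.1 to 27.4 in null embryos. There were 3 libraries that stood apart. The summed level of 19 mesenchyme genes was 884, 1452 and 210 CPM in WT embryos 1, 2 and 3, 132 to 195 CPM in Het, and 141, 95.8 and 1860 CPM in null embryos 1, 2 and 3, and endothelial genes were also highest in WT embryos 1 and 2 and null embryo 3. Null embryo 3 also held 501 CPM of Acan and 390 CPM of Matn1, cartilage genes chosen after the values were seen, against at most 7.02 and 13.6 CPM in any other library. In such bulk RNA, fewer cells of a type and less RNA per cell cannot be told apart.

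In WT ducts the levels of the members, given as CPM per kilobase of exon so that genes can be compared, were led by a scaffold and by transporters that load and export chloride and bicarbonate. The scaffold Slc9a3r1 (NHERF1, which anchors exchangers and channels under the apical membrane) had 79.1 ± 3.64 CPM per kilobase (SD, n = 3). Among transporters, Slc4a2 (the chloride-bicarbonate exchanger AE2) followed at 27.9 ± 1.15, then Slc26a4 (pendrin, the chloride-bicarbonate exchanger lost in Pendred syndrome) at 18.6 ± 2.60 and Slc12a2 at 18.5 ± 1.46 CPM per kilobase, and these last values overlapped between embryos. Slc12a7 (14.9 ± 0.360) and Slc12a4 (14.7 ± 0.478), both potassium-chloride cotransporters, came next and also overlapped. Slc4a3 and Slc24a3 were also above 10 CPM per kilobase, a level that 9 members passed. Another 22 lay between 1 and 10 and 14 lay under 1. Of the 44 neighbouring pairs in this order, 32 had overlapping embryos, so that much of the ranking is not resolved by these libraries. At the foot stood Slc8a3 (0.109 ± 0.0534), Slc24a1 (0.0963 ± 0.0680) and Slc24a2 (0.00720 ± 0.00814 CPM per kilobase), the last on 0, 5 and 2 counts. With the length of the longest transcript in place of all exons, Slc12a2 (31.1) and Slc12a7 (27.0) passed Slc26a4 (18.8 CPM per kilobase).

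**Figure D1:**
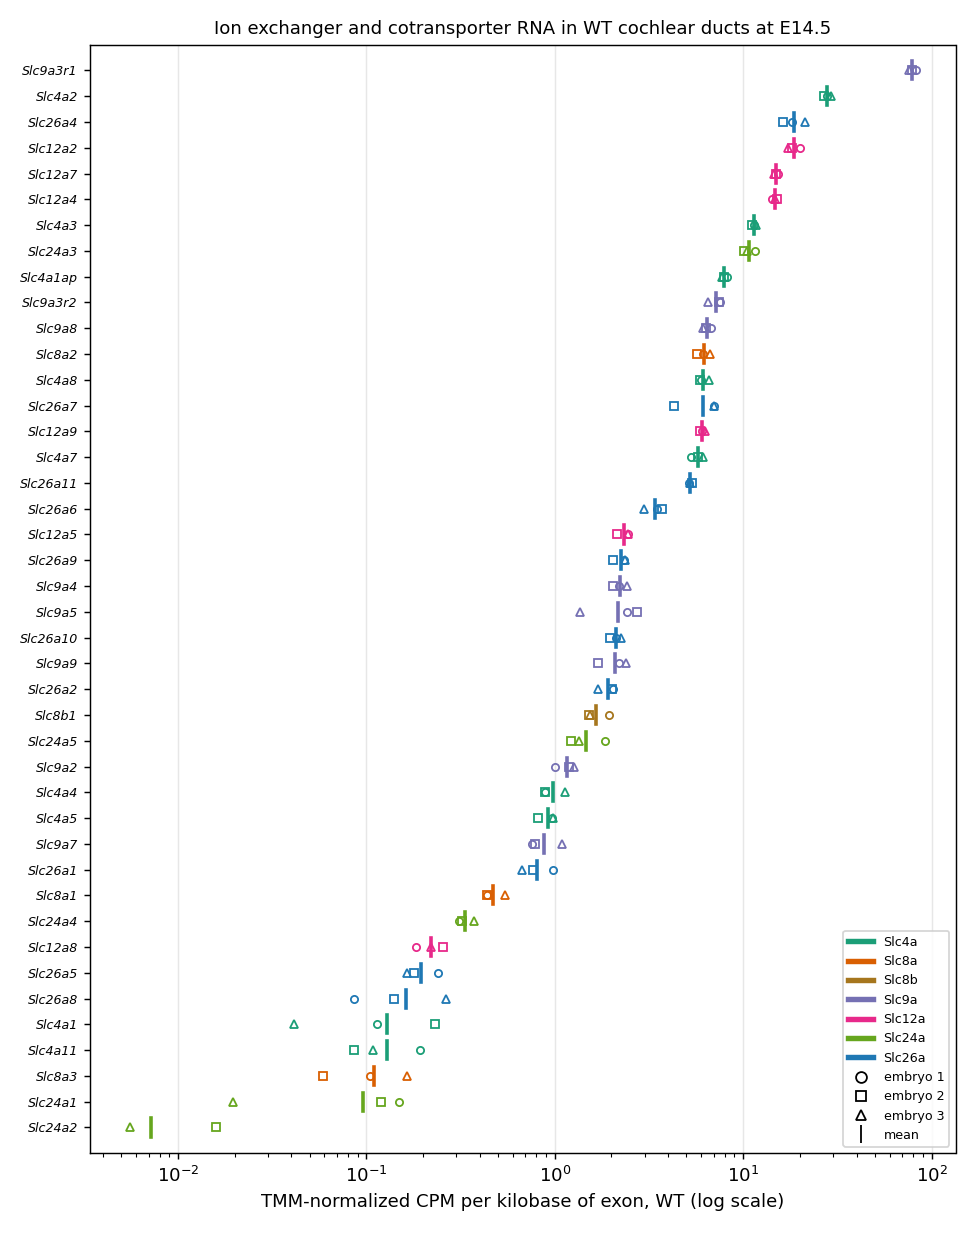
The RNA level of 42 of the 45 members in WT cochlear ducts, as CPM per kilobase of exon on a log axis, with open symbols for the 3 embryos, a bar for the mean and colour for the gene family. Levels run from 79.1 for Slc9a3r1 to 0.00720 for Slc24a2, whose WT embryo 1 had 0 counts and is not drawn.

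Summed over the members, the level was 317, 301 and 309 CPM per kilobase in WT embryos, 324, 295 and 306 in Het, and 296, 299.8 and 289 in null embryos. The null values were all below the WT values, the nearest pair being 299.8 and 300.8, but the scaffold Slc9a3r1, which is no transporter, held 25.6% of the summed WT means. Without it the sum was 222 to 234 in WT, 221 to 241 in Het and 216 to 228 CPM per kilobase in null embryos, which overlapped. Within a genotype, the median coefficient of variation of a member was 9.92% in WT, 9.36% in Het and 15.5% in null embryos.

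Null against WT ducts, no member passed the test, which asked for an edgeR Benjamini-Hochberg adjusted p under 0.05 over all genes and an absolute log2 fold change over 0.5. Of all 17168 genes tested, 0.920% were called higher and 0.786% lower by that rule, 1.71% in all, and 1.78% passed at any fold. All members but Slc24a1 were tested, and 13 of these 44 had an unadjusted p under 0.05 (4 higher, 9 lower in null), against 12.2% of all genes (6.48% higher, 5.76% lower). DESeq2 called 2 members higher (Slc24a2, Slc12a8) and 3 lower (Slc12a2, Slc26a9, Slc9a4), beside 1.92% and 1.63% of all genes. With limma-voom 1 was called higher (Slc24a2) and none lower, beside 0.938% and 0.810%. The 3 null embryos lay wholly above the 3 WT embryos for 4 members and wholly below for 11, against 10.1% and 8.95% of all genes (19.0% in all). Slc24a2, a member only through its null libraries, is in the higher counts by unadjusted p, DESeq2, limma-voom and embryos. Nothing is read from those higher counts. The p-values here measure the spread among 3 littermates of a genotype. The median log2 fold change of the members was -0.06, beside 0.01 for all genes, and 22 of the 44 had a value within 0.25 of zero. The median size of the change was 0.25 for members and 0.15 for all genes.

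**Figure D2:**
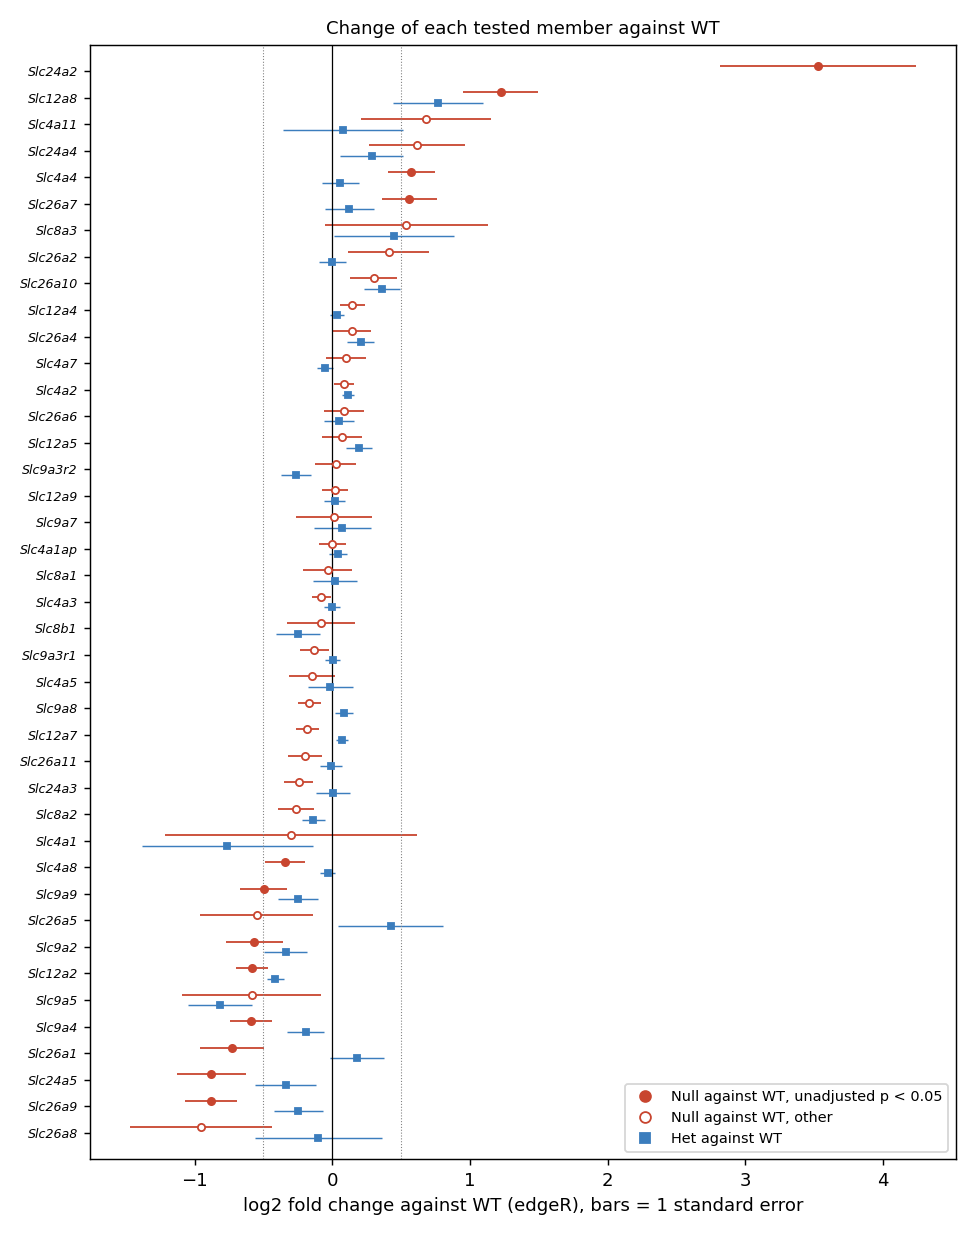
The log2 fold change against WT of the tested members among those 42, with 1 standard error, in null (circles, filled where the unadjusted p was under 0.05) and Het embryos (squares); dotted lines mark the fold threshold of 0.5. Slc24a2 has the largest value in null embryos, 3.53, and the 12 filled circles lie on both sides of zero, with no member called.

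Het against WT, again no member was called, beside 0.0521% of 17269 genes called higher, 0.0984% lower and 0.151% in all. Slc12a2 had an adjusted p under 0.05 with a change smaller than the fold threshold, as did 0.261% of all genes at any fold. An unadjusted p under 0.05 was seen for 6 members (3 higher, 3 lower), against 13.1% of all genes (5.80% higher, 7.33% lower). DESeq2 called 1 lower, Slc9a5, beside 1.41% of all genes, and limma-voom none. Het embryos did not overlap WT embryos for Slc26a10, Slc4a2, Slc12a8 and Slc12a5, which were higher, and for Slc12a2, Slc9a5, Slc9a3r2 and Slc8b1, which were lower. That is 8 of 44 members, 18.2%, beside 18.0% of all genes (8.97% higher, 8.99% lower).

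Null against Het, 1 of 44 members was called higher, Slc24a2, beside 0.293% of 17067 genes, and none lower, beside 0.322% (0.615% in all, and 0.645% at any fold). Since Slc24a2 met the count limit through its null libraries alone, nothing is read from that count, nor from the counts of members higher in null that follow. An unadjusted p under 0.05 was seen for 8 (3 higher, 5 lower), against 11.4% of all genes (6.14% higher, 5.25% lower), and DESeq2 called 1 lower, Slc26a1, beside 0.973%. Null and Het embryos did not overlap for 11 members, 25.0%, beside 18.2% of all genes. Slc24a2, Slc4a4 and Slc26a7 were the 3 higher in null, beside 9.06% of all genes, and 8 were lower, beside 9.09%. The comparisons share libraries, so agreement between them is not separate evidence.

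Slc24a2 lies at chr4:86983124-87230477 of mm10 on the minus strand and encodes NCKX2, a potassium-dependent sodium-calcium exchanger known from neurons and cone photoreceptors. Its counts were 0, 5 and 2 in WT embryos 1, 2 and 3, 3, 5 and 4 in Het, and 31, 28 and 23 in null embryos. Every null embryo thus had more than 4 times the count of any other embryo, at a level of 1.28, 0.903 and 0.963 CPM that is among the lowest of the members. The membership rule used these same null counts, so the fitted values are given as a description. They were a log2 change of 2.77 for null against Het (standard error, SE, 0.402, edgeR adjusted p = 0.0301) and 3.53 for null against WT (SE 0.712, edgeR adjusted p = 0.0590). Leaving out 1 embryo kept the null against Het call only without null embryo 3 (adjusted p 0.0341). Without null embryo 1 or 2 the adjusted p was 0.0755 or 0.0559, and without Het embryo 1, 2 or 3 it was 0.177, 0.140 or 0.214, with log2 fold changes of 2.61 to 2.93 throughout.

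Neurons, a known home of Slc24a2, were followed by 12 marker genes. Their summed level was 259 to 303 CPM in WT, 251 to 280 in Het and 220 to 291 in null embryos. Most of it was Isl1, at 175 to 273 CPM over the 9 embryos, so the sum is not read as neuron content. Of the 10 tested in null against WT, 6 were above zero and 4 below, with a median log2 fold change of 0.02 and 1 called. In null against Het 6 were above zero and 4 below, with a median of 0.35 and none called. There 4 had an unadjusted p under 0.05, beside 11.4% of all genes. In Het against WT 3 were above zero and 7 below, with a median of -0.35 and Stmn2 called lower. The gene called in null against WT was also Stmn2, a neuronal tubulin regulator, which was lower (-2.96, SE 0.286, edgeR adjusted p = 0.00343). It was 8.18, 9.13 and 8.44 CPM in WT and 0.660, 1.26 and 1.38 CPM in null embryos. Snap25, a synaptic vesicle fusion protein, did not exceed 1.21 CPM in any library. Of other members known from neurons, Slc12a5 (KCC2) stood at 15.0 to 21.1 CPM over the 9 embryos and Slc8a2 (NCX2) at 23.0 to 34.9 CPM, with log2 changes of 0.07 (SE 0.147) and -0.26 (SE 0.130) in null against WT. The 250 bases before each of 2 RefSeq starts of Slc24a2 are shown because a start in use cannot be told from gene counts and the windows differ in composition. The upstream start, at chr4:87230541-87230790 on the minus strand of GRCm38.p6, had 56.0% GC and none of the motifs searched. The inner one, at chr4:87227964-87228213, had 36.8% GC and a TATA box (TATAAA or its reverse complement, in capitals) 59 bases before the start.

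Slc24a2 upstream start: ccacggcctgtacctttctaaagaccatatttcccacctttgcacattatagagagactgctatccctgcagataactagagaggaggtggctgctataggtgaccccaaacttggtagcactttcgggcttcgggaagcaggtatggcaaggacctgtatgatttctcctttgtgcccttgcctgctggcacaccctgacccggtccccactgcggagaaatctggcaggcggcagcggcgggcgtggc
Slc24a2 inner start: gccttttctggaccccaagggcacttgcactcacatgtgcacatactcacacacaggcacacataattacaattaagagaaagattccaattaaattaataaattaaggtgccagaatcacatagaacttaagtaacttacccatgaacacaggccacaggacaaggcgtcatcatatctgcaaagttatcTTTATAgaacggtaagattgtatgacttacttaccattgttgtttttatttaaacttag

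Slc24a5 (NCKX5, of pigment cell organelles) had 4.29, 2.86 and 3.15 CPM in WT, 3.05, 2.88 and 2.23 in Het, and 2.10, 2.00 and 1.51 CPM in null embryos. Null embryos lay below all WT and Het embryos, with a log2 change of -0.88 against WT (SE 0.254, edgeR adjusted p = 0.186). Beside it, 8 melanocyte genes summed to 122, 171 and 79.8 CPM in WT, 44.8 to 63.7 in Het, and 28.9, 24.7 and 67.9 CPM in null embryos. In null against WT all 8 were below zero and none was called. At an unadjusted p under 0.05, 7 of these melanocyte genes were lower, beside 5.76% of all genes. Their part in the Slc24a5 values was not tested. Slc24a5 also shares 921 exon bases with Myef2 on the opposite strand, a gene with 1763 to 2893 counts per library against 36 to 116 for Slc24a5, and whether counting used strand is not given in the sources used here. Slc24a3 (NCKX3) had the highest level per length of the 5 in WT, with 46.1 to 52.6 CPM in WT and 36.3 to 44.6 in null embryos. Its log2 fold change was -0.24 (SE 0.106, edgeR adjusted p = 0.415). Slc24a4 stood at 1.41 to 3.59 CPM in the 9 embryos. Slc24a1, the rod photoreceptor exchanger, had 0.777, 0.627 and 0.102 CPM in WT, 0.401, 0.288 and 0.585 in Het, and 0.206, 0.161 and 0.293 CPM in null embryos, and was tested in Het against WT alone (-0.22, SE 0.626).

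Sodium-calcium exchangers without potassium showed no called member. Slc8a1 (NCX1, the widespread form) had 8.25, 8.23 and 10.2 CPM in WT, 9.95, 7.10 and 10.05 in Het, and 8.87, 7.26 and 10.05 CPM in null embryos, which overlapped throughout, with a log2 change of -0.03 (SE 0.179) in null against WT. Slc8a3 (NCX3) was low at 0.555, 0.314 and 0.881 CPM in WT, 0.522, 0.864 and 1.02 in Het, and 0.454, 0.548 and 1.59 CPM in null embryos. Slc8a2 (NCX2) stood at 30.1 to 34.9 CPM in WT and 23.0 to 30.9 in null embryos, and the mitochondrial exchanger Slc8b1 at 3.96 to 7.13 CPM in the 9.

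Slc12a2, at chr18:57878678-57946821 on the plus strand, was lower in every embryo with the trap allele than in WT. It stood at 219.8, 199 and 188 CPM in WT, 152, 143 and 161 in Het, and 131, 117 and 158 CPM in null embryos. No Het or null embryo reached the lowest WT embryo, while null and Het overlapped. In Het the log2 change was -0.41 (SE 0.0636, edgeR adjusted p = 0.0465), in null embryos -0.58 (SE 0.118, edgeR adjusted p = 0.0593), and null against Het -0.17 (SE 0.117, adjusted p = 0.602). Neither was called, the Het value because of its fold and the null value because of its adjusted p. Over 17 alternatives the Het log2 change ran from -0.46 to -0.31, short of the fold threshold in each. Without null embryo 3, the library with cartilage RNA, the null value was -0.71 with an adjusted p of 0.0124. Over 17 alternatives the adjusted p ran from 3.92e-04 to 0.293 in null and from 4.95e-12 to 1.00 in Het, and was under 0.05 in 6 and 8 of them. With the mesenchyme genes as a covariate, the values were -0.48 and -0.34.

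Potassium-chloride cotransporters export what Slc12a2 loads, and those described here were not called. Slc12a4 (KCC1) stood at 60.9 to 64.9 CPM in WT and 63.6 to 76.5 in null embryos. Slc12a7 (KCC4), needed for hearing in mice, had 193, 189 and 184 CPM in WT, 206, 192 and 197 in Het, and 187, 156 and 159 CPM in null embryos, a log2 change of -0.18 (SE 0.0861, edgeR adjusted p = 0.457).

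The balance of loader to exporters was read as the CPM per kilobase of Slc12a2 over the sum of the exporters Slc12a4, Slc12a5 and Slc12a7. It was 0.63, 0.566 and 0.543 in WT embryos, 0.41, 0.403 and 0.435 in Het and 0.371, 0.35 and 0.439 in null embryos. WT embryos did not overlap the other groups, while Het and null overlapped. This ratio was formed after Slc12a2 was seen not to overlap, so its values are given as a description and no p is read from them.

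Kinases of the WNK pathway phosphorylate and activate NKCC1 and inhibit the potassium-chloride cotransporters. Of 21 kinases and partners in a written list, 18 were tested. In null against WT 2 were called higher, beside 0.920% of all genes, and none lower, beside 0.786%. Stk39 (SPAK, the kinase that phosphorylates NKCC1) was 144, 147 and 154 CPM in WT, 155, 155 and 151 in Het, and 195, 217 and 223 CPM in null embryos, a log2 change of 0.51 (SE 0.0775, edgeR adjusted p = 0.0208). Null embryos lay above all others, and Het overlapped WT. Sgk1, a steroid-induced kinase of ion transport and also a gene of the outer sulcus list, was 62.5, 35.8 and 36.7 CPM in WT and 125, 129.9 and 100.2 CPM in null embryos, a log2 change of 1.39 (SE 0.218, edgeR adjusted p = 0.0231). Oxsr1, the close relative of Stk39, stood at 98.7 to 112 CPM in all 9 embryos, and Wnk1 at 790 to 804 CPM in WT and 580 to 841 in null embryos.

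**Figure D3:**
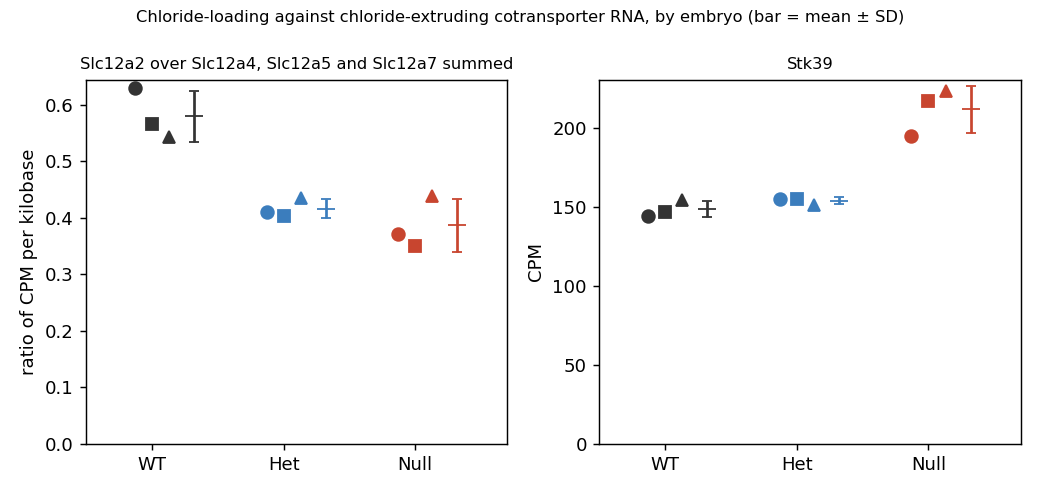
Left, the CPM per kilobase of Slc12a2 over the sum of Slc12a4, Slc12a5 and Slc12a7, and right, the CPM of Stk39, in each embryo (circle, square and triangle for embryos 1, 2 and 3), with the mean and SD of each genotype. The ratio is lower in Het and null embryos than in any WT embryo (WT 0.543 to 0.63), whereas Stk39 is higher in null embryos alone (195 to 223 CPM).

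Slc12a8, a divergent member at chr16:33517328-33664135, had 0.814, 1.14 and 0.983 CPM in WT, 2.45, 1.33 and 1.24 in Het, and 1.94, 2.19 and 2.76 CPM in null embryos. WT embryos lay below all others, with a log2 change of 1.22 in null embryos (SE 0.272, edgeR adjusted p = 0.0828) and 0.77 in Het (SE 0.330, edgeR adjusted p = 0.357), or 0.40 in Het without Het embryo 1. Slc12a9, another divergent member, overlapped between genotypes at 28.8 to 33.0 CPM.

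Among the anion exchangers of Slc26a, differences lay on both sides of zero. Slc26a9, a chloride transporter of airway and stomach epithelium at chr1:131744022-131771504, had 12.2, 10.7 and 12.3 CPM in WT, 12.6, 7.28 and 9.76 in Het, and 7.01, 7.26 and 4.86 CPM in null embryos. Null embryos lay below all others, with a log2 change of -0.88 (SE 0.189, edgeR adjusted p = 0.0752, and 0.00111 to 0.335 over 17 alternatives). Slc26a1, a sulfate exchanger, had 3.96, 3.10 and 2.71 CPM in WT, 3.73, 3.39 and 3.95 in Het, and 2.19, 1.84 and 1.88 CPM in null embryos. Here too null embryos lay below all others, at -0.73 against WT (SE 0.232, edgeR adjusted p = 0.236), or -0.43 without the 3 libraries rich in mesenchyme genes, and -0.91 against Het (SE 0.207, edgeR adjusted p = 0.140). Slc26a7, an anion transporter of thyroid and stomach, had 38.1, 23.3 and 38.1 CPM in WT, 41.1, 30.98 and 36.5 in Het, and 48.1, 42.5 and 56.6 CPM in null embryos. Null embryos lay above all others, with a log2 change of 0.56 (SE 0.198, edgeR adjusted p = 0.293), of 0.25 without the 3 libraries rich in mesenchyme genes, and of 0.37 without WT embryo 2 alone.

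Pendrin RNA overlapped among the genotypes. Slc26a4 had 56.4, 50.7 and 66.6 CPM in WT, 72.99, 65.5 and 62.3 in Het, and 74.9, 60.3 and 57.2 CPM in null embryos. The log2 change was 0.14 in null embryos (SE 0.138, edgeR adjusted p = 0.738). Slc26a5 (prestin, the motor of outer hair cells) was low at 0.740, 0.549 and 0.508 CPM in WT, 0.481, 0.936 and 0.987 in Het, and 0.577, 0.323 and 0.335 CPM in null embryos, which overlapped WT. Of 8 hair cell genes, 4 were above zero and 4 below in null against WT. Myo7a alone was called, as higher, beside 0.920% of all genes. The list summed to 135 to 201 CPM in WT and 146 to 253 in null embryos.

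Slc26a2, the sulfate transporter that cartilage needs to sulfate its proteoglycans, was set apart by a single library. It had 25.4, 25.0 and 21.05 CPM in WT, 25.0, 24.5 and 22.0 in Het, and 26.9, 19.9 and 48.4 CPM in null embryos, where the value of embryo 3 lay above every other library. Null embryo 3 is the library in which Acan and Matn1 reached 501 and 390 CPM, and Hapln1, a link protein of cartilage matrix, reached 515 CPM against at most 7.74 CPM elsewhere. The log2 fold change in null against WT was 0.41 (SE 0.293, edgeR adjusted p = 0.639) with that library and -0.03 without it. The remaining Slc26a members, Slc26a6, Slc26a8, Slc26a10 and Slc26a11, had an unadjusted p above 0.05 in null against WT. Slc26a8, known from sperm, did not exceed 1.25 CPM.

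The promoter windows of Slc26a9 and Slc26a1, whose null embryos lay apart from the rest, and of pendrin for contrast, are printed as the 250 bases before the RefSeq start on GRCm38.p6. Capitals mark a TATA box (TATAAA) or a forkhead core (TGTTTAC), read on both strands. Slc26a9 (chr1:131743772-131744021, plus strand) and Slc26a4 (chr12:31559985-31560234, minus strand) had a TATA box 28 and 31 bases before the start, where such a box usually stands. The inner start of Slc26a1 (chr5:108674797-108675046, minus strand) held a forkhead core 67 bases and a TATA box 240 bases before it. The window of its other RefSeq start (chr5:108675366-108675615), 204 bases from the gene start of GENCODE against 773 for the inner one, held none of the motifs and is not printed.

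Slc26a9: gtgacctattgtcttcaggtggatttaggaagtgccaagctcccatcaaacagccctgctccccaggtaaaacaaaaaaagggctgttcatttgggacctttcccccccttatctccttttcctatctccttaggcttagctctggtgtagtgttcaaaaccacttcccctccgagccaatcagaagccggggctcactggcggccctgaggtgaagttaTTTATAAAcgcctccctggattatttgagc
Slc26a4: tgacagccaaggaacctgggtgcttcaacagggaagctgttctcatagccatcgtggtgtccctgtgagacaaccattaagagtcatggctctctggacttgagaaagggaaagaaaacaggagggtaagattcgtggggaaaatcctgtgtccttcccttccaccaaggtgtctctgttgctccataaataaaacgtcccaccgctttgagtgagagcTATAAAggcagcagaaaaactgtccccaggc
Slc26a1 inner start: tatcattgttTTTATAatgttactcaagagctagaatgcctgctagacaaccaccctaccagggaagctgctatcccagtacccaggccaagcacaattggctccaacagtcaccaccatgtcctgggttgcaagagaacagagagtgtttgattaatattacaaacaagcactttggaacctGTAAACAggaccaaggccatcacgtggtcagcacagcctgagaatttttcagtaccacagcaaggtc

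Windows were found for 33 of the 45 members, 43 in all. TATAAA was in 7 of these 43 windows (16.3%) and in 12.4% of 32851 windows of all genes. GGGCGG, a GC box, was in 39.5% and 32.7%, and TGTTTAC in 2.33% and 3.17%. AAGGTCA, the half-site of the ERR receptors and searched because Esrrb fell, was in none of the 43 and in 4.08% of all windows. The median GC content was 60.8% for member windows and 52.4% for all. These matches describe letters in these windows and not binding.

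**Figure D4:**
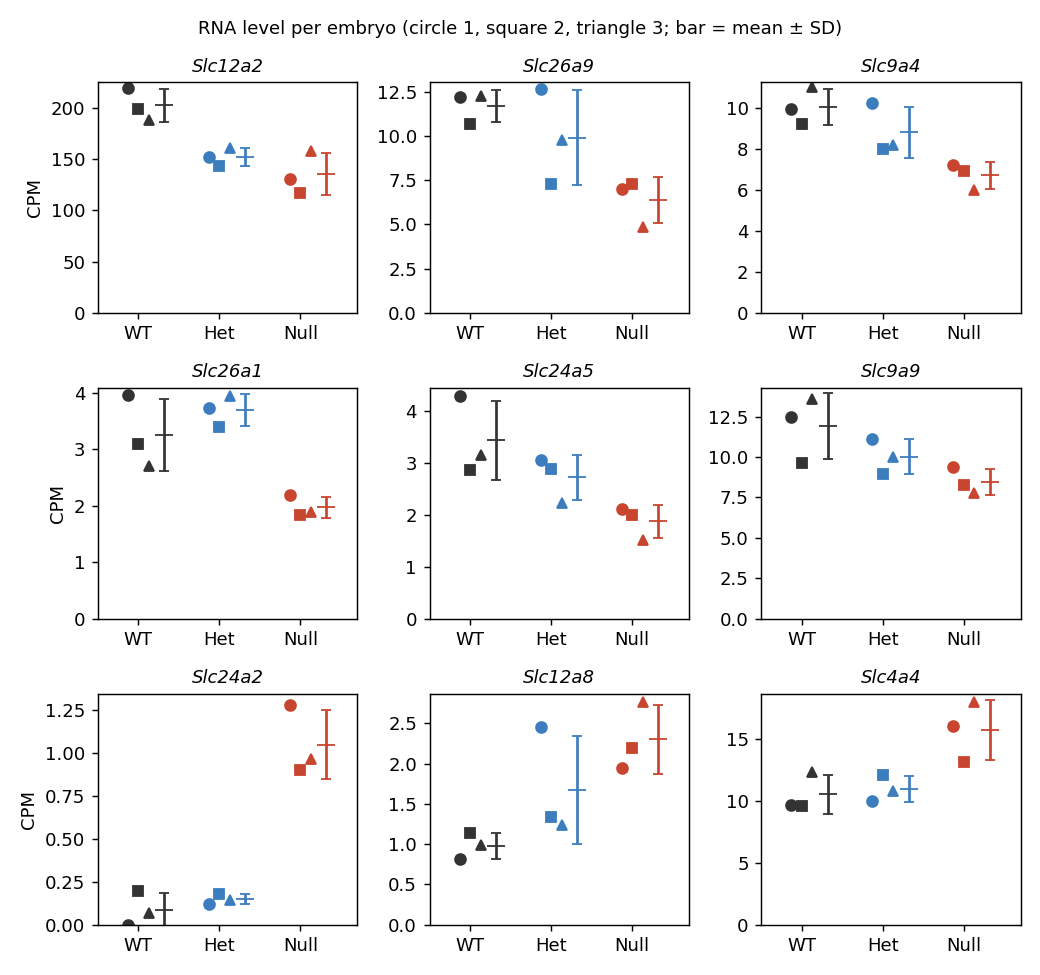
CPM of 9 members in each embryo (circle, square and triangle for embryos 1, 2 and 3), with the mean and SD of each genotype; every axis starts at 0. Null embryos lie below WT embryos for Slc12a2, Slc26a9, Slc9a4, Slc26a1, Slc24a5 and Slc9a9 and above them for Slc24a2, Slc12a8 and Slc4a4.

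Bicarbonate transporters of Slc4a also lay on both sides of zero. Slc4a4 (NBCe1, a sodium-bicarbonate cotransporter) had 9.66, 9.60 and 12.3 CPM in WT, 10.03, 12.1 and 10.8 in Het, and 16.04, 13.2 and 18.0 CPM in null embryos. Null embryos lay above all others, at a log2 change of 0.57 against WT (SE 0.170, edgeR adjusted p = 0.204) and 0.52 against Het (SE 0.156, edgeR adjusted p = 0.274), and at 0.25 against WT without the 3 libraries rich in mesenchyme genes. Slc4a8 (NDCBE, a sodium-driven chloride-bicarbonate exchanger) had 77.4, 76.96 and 85.9 CPM in WT, 78, 80.9 and 76.2 in Het, and 74.5, 49.7 and 66.2 CPM in null embryos, below all WT embryos at -0.34 (SE 0.144, edgeR adjusted p = 0.395), or -0.19 without null embryo 2. Slc4a2, the highest of the family per length, had 232, 223 and 242 CPM in WT, 262, 247 and 245 in Het, and 250.4, 257 and 234 CPM in null embryos. Only Het lay wholly above WT, by a log2 change of 0.11 (SE 0.0463, edgeR adjusted p = 0.331). Slc4a2 shares 1141 exon bases with Fastk on the other strand.

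Slc4a7 (NBCn1, a sodium-bicarbonate cotransporter needed for hearing in mice) overlapped between genotypes, with 80.8, 88.1 and 92.97 CPM in WT, 85.7, 84.03 and 82.9 in Het, and 113, 74.6 and 94.3 CPM in null embryos. Slc4a11, mutated in a corneal dystrophy with deafness, was low at 0.962, 0.431 and 0.542 CPM in WT, 0.401, 0.720 and 0.913 in Het, and 0.866, 0.645 and 1.63 CPM in null embryos. Slc4a1, the anion exchanger of red cells, ran from 0.0323 to 1.14 CPM, beside 14 erythroid genes, 13 of them in the tables, that summed to 177 to 332 CPM in WT, 128 to 146 in Het and 133 to 203 in null embryos. Slc4a3, Slc4a5 and the binding partner Slc4a1ap had log2 fold changes of -0.08, -0.15 and 0.00 in null against WT.

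Carbonic anhydrases supply the bicarbonate and protons that these exchangers carry. Of 16 in a written list, 12 were tested. Car2 alone was called in null against WT, as lower, beside 0.786% of all genes called lower. It had 97.8, 101 and 73.95 CPM in WT, 61.5, 60.1 and 67.3 in Het, and 34.9, 38.4 and 27.6 CPM in null embryos. The groups did not overlap at all, and the log2 change was -1.44 against WT (SE 0.160, edgeR adjusted p = 0.00603) and -0.91 against Het (SE 0.124, edgeR adjusted p = 0.0242).

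Of the 10 Slc9a genes, the scaffolds included, 7 were below zero in null against WT, beside 48.1% of all genes, and 3 were lower at an unadjusted p under 0.05, beside 5.76%. Slc9a4 (NHE4, at chr1:40580081-40630725) had 9.96, 9.25 and 11.02 CPM in WT, 10.3, 7.996 and 8.22 in Het, and 7.22, 6.94 and 5.99 CPM in null embryos, below all others at -0.59 (SE 0.155, edgeR adjusted p = 0.145). Its neighbour Slc9a2 (NHE2), 49.8 kb downstream with no coding gene between, had 7.03, 8.35 and 8.88 CPM in WT, 7.54, 6.12 and 5.55 in Het, and 4.50, 6.87 and 5.07 CPM in null embryos, at -0.56 (SE 0.209, edgeR adjusted p = 0.319). Both genes lie on the plus strand, and Slc9a4 shares 764 exon bases with the unclassified transcript Gm37435, which held 11 to 31 counts. Slc9a9, an exchanger of endosomes, had 12.5, 9.64 and 13.6 CPM in WT, 11.1, 8.97 and 10.01 in Het, and 9.36, 8.26 and 7.75 CPM in null embryos, below all WT embryos at -0.50 (SE 0.172, edgeR adjusted p = 0.279).

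The scaffold Slc9a3r1 had 159.6, 151 and 146 CPM in WT, 160.2, 142 and 156 in Het, and 131, 162 and 125 CPM in null embryos, which overlapped. The exchangers of endosomes and Golgi, Slc9a7 and Slc9a8, had log2 fold changes of 0.01 and -0.17 in null against WT, and the scaffold Slc9a3r2 of 0.03.

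Slc9a5 (NHE5) was highest where mesenchyme genes were. It stood at 12.7, 14.3 and 7.12 CPM in WT, 6.70, 7.02 and 5.63 in Het, and 4.12, 4.29 and 14.4 CPM in null embryos, so that the 3 highest libraries were the 3 with the highest mesenchyme sum. In Het against WT the log2 change was -0.82 (SE 0.232, unadjusted p = 0.00577, edgeR adjusted p = 0.155). With the mesenchyme genes as a covariate it was -0.06, and without those 3 libraries -0.14. In null against WT it was -0.59 (SE 0.506, edgeR adjusted p = 0.706), -0.18 with the covariate, -0.75 without the 3 libraries and -1.43 without null embryo 3 alone. In null against Het it was 0.24 (SE 0.459), -0.34 with the covariate and -0.61 without the 3 libraries.

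**Figure D5:**
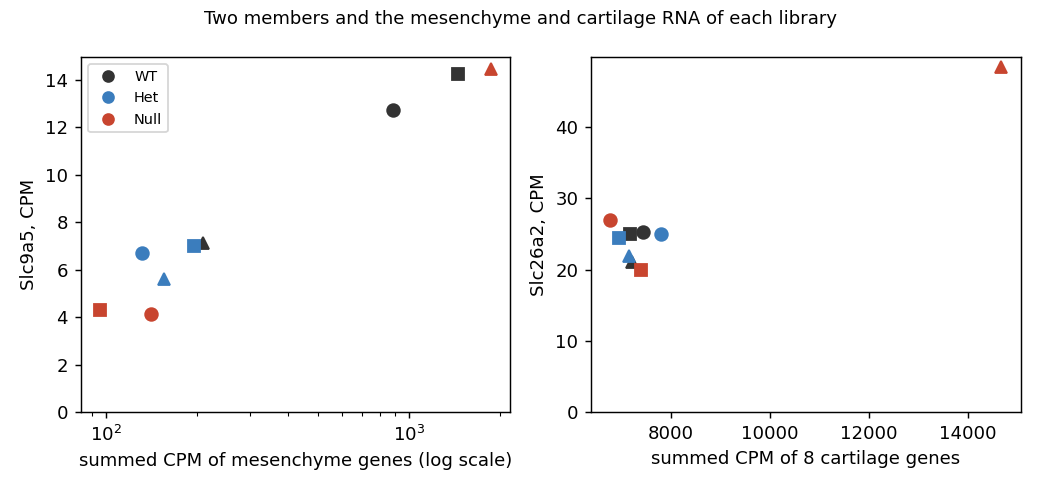
Left, CPM of Slc9a5 in each library against the summed CPM of 19 mesenchyme genes (log axis), and right, CPM of Slc26a2 against the summed CPM of 8 cartilage genes, with colour for genotype and circle, square and triangle for embryos 1, 2 and 3. The 3 libraries with the highest mesenchyme sums have 12.7 to 14.4 CPM of Slc9a5, and null embryo 3 stands alone at 48.4 CPM of Slc26a2.

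Other parts of the endolymph machinery were read from written lists by the same null against WT fit. In that fit 0.920% of all genes were called higher and 0.786% lower, and 12.2% had an unadjusted p under 0.05. Of 21 ATPase pump genes, 15 were tested and none was called, with 5 at an unadjusted p under 0.05, among them the sodium pump subunit Atp1b1 at -0.40 (SE 0.0977, edgeR adjusted p = 0.112). Of 22 vacuolar proton pump subunits, 20 were tested and Atp6v1g3 was called lower. It was low in WT, at 0.518, 0.705 and 0.441 CPM, and under the floor in null embryos, at or under 0.0323 CPM. Of 24 channels and junction genes, 22 were tested and Scnn1b, the beta subunit of the epithelial sodium channel, rose. It had 8.03, 6.86 and 7.999 CPM in WT, 12.1, 10.1 and 14.6 in Het, and 21.4, 23.8 and 21.4 CPM in null embryos, with no overlap among the groups and a log2 change of 1.54 (SE 0.126, edgeR adjusted p = 0.00214).

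Of 9 transcription factors known to control endolymph genes, 6 were tested. Esrrb, an orphan nuclear receptor needed for the marginal cells of the stria, was called lower in null against WT, beside 0.786% of all genes. It had 62.5, 44.6 and 47.3 CPM in WT, 42.6, 15.1 and 28.9 in Het, and 18.4, 22.6 and 15.6 CPM in null embryos, a log2 change of -1.45 (SE 0.177, edgeR adjusted p = 0.00768). All null embryos lay below all WT embryos. Het overlapped null. In Het against WT, 0.0521% of all genes were called higher. The 1 call over these lists was Kcnj16, a potassium channel subunit, at a log2 change of 0.66 (SE 0.0916, edgeR adjusted p = 0.0363). It had 24.8, 20.97 and 23.3 CPM in WT, 34.2, 35.2 and 39.6 in Het, and 45.3, 33.8 and 33.2 CPM in null embryos.

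Marker genes of domains of the duct were read in the same null against WT fit, which called 0.920% of all genes higher and 0.786% lower. Of the Kölliker's organ genes listed by the study from WT single cells, 18 were read, leaving out Prdm16 and Tectb. The study reports Tectb as raised in null cochleae. Of the 18, 12 fell and 1 rose. Their summed level was 5157 to 6173 CPM in WT and 3090 to 3333 CPM in null embryos. Tecta made up a large part of it, at 1392 to 3229 CPM over the 9 embryos. Roof genes summed to 9930 to 11604 CPM in WT and 13101 to 16309 CPM in null embryos, with Fibin called higher of 20 tested. Most of that sum was Oc90, the otoconial matrix protein (7242 to 8455 CPM in WT, 10032 to 13365 in null embryos), and without it the sum was 2688 to 3149 CPM in WT and 2943 to 3069 CPM in null embryos, which overlapped. Outer sulcus genes summed to 5094 to 5510 and 5046 to 6085 CPM, with Sgk1 called higher and Tac1 lower. Prosensory genes summed to 1299 to 1395 CPM in WT and 1445 to 1749 CPM in null embryos, with Cdkn1b, Fgf20 and S100a1 called higher of 19 tested. The part of these domains in the values of the members was not tested.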

How the data were processed

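The authors isolated RNA from microdissected cochlear ducts, made TruSeq mRNA libraries and sequenced 50-base single reads. Reads were aligned to mm10 with STAR, and the submitters' processing notes also name cutadapt 1.13, HTSeq 0.6.1p1 and DESeq2, with no role or order. The study's methods name Cufflinks for assembly and annotation and no read counter, so which program made the counts is not settled by these sources. What the authors deposited is 1 table per embryo of read counts by Ensembl gene, not normalized. The strand setting and annotation release are not given in the sources used here. The 37 mitochondrial genes hold 0 counts. Samples were grouped by labelled genotype, 3 embryos each, and total counts of 24095322 to 30819118 with 3 embryos per genotype set the precision.

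Symbols, positions and exon lengths came from GENCODE vM21, which held 54165 of 54232 genes. Pairs of genotypes were fitted separately, 6 libraries at a time, in edgeR 4.0.16 in R 4.3.3 (TMM, filterByExpr with a minimum count of 10, quasi-likelihood test), with Benjamini-Hochberg adjustment over all genes, and a call needed an adjusted p under 0.05 with a log2 fold change beyond 0.5 in either direction. CPM were TMM-normalized over all 9 libraries. Alternatives were DESeq2 1.42.0, limma-voom (limma 3.58.1), other scaling and filters, all 9 libraries in 1 fit, a replicate block, a covariate of Y-linked genes, other exon lengths, and leaving out each embryo. The Y-linked genes summed to 312 CPM in WT embryo 1, 307 in Het embryo 1, and 314 and 274 in null embryos 1 and 2. No other embryo exceeded 1.55 CPM, so the sexes were unevenly spread over the genotypes. A mesenchyme covariate, leaving out the 3 mesenchyme-rich libraries and the cartilage list were added after the data were seen. On counts simulated for null against WT (16847 genes), the procedure recovered 56 of 100 genes changed by a log2 of 1 and 83 of 100 changed by 2, with 8 false calls. No pair of libraries of a genotype agreed within sampling noise (the smallest chi-square, per gene, was 5.70).

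Embryo values are given for members called in any comparison, with an unadjusted p under 0.05 in null against WT, among the 5 highest or 3 lowest WT levels, or known from deafness or endolymph work, and others where a value stands out. Members and lists were chosen with earlier results of these data known. Promoter windows came from RefSeq (GRCm38.p6), and 12 members had no window there. Values of 3 members are not reported here, while counts over members include them.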

Additional observations from a re-analysis of the deposited data

How the results depend on the processing

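Low counts and 3 embryos per genotype limit these results, and a lone sample left in a group was assumed to vary like the others. Members called higher in null against WT (0) became 2 with DESeq2 (Slc12a8, Slc24a2) and 1 with limma-voom, with no filter on low counts and with all 9 libraries in 1 fit (Slc24a2 each time), beside 1.92%, 0.938%, 0.834% and 1.46% of all genes. Slc24a2 is a member only through its null libraries, so nothing is read from these higher counts or from those in null against Het below. Members called lower (0) became 3 with DESeq2 (Slc12a2, Slc26a9, Slc9a4), 2 with no filter (Slc12a2, Slc26a9), 1 with library totals only and with all 9 libraries (Slc12a2), 1 with the mesenchyme covariate (Slc26a9), and 0 to 1 when an embryo was left out (Slc12a2, without null embryo 3). All genes called lower were 1.63% with DESeq2, 0.653% with no filter, 0.839% with library totals, 1.17% with all 9 libraries, 0.827% with the covariate and 1.31% without null embryo 3. In Het against WT, members called lower (0) became 1 with no fold change threshold (Slc12a2), 1 with DESeq2 and with no filter (Slc9a5), and 0 to 1 when an embryo was left out (Slc9a5, without WT embryo 3), beside 0.133%, 1.41%, 1.80% and 2.59% of all genes in that order. In null against Het, the 1 member called higher, Slc24a2, was lost (0) with all 9 libraries in 1 fit, with the Y-linked covariate and with the replicate block, where its adjusted p was 0.0679, 0.0511 and 0.110, and 0 to 1 was called when an embryo was left out. All genes called higher were then 0.444%, 0.346% and 0.129%, and 0.0284% to 0.292% in the fits without an embryo that lost it. DESeq2 called 1 lower (Slc26a1), beside 0.973%. The cause was not tested, save that fits without an embryo have fewer samples. Deviations of same-numbered embryos from their genotype mean had correlations of -0.28 to 0.01 for null and WT, -0.06 to 0.20 for Het and WT, and -0.12 to 0.14 for null and Het. Differently numbered embryos were not compared, so these values do not settle whether the number pairs samples.

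Of the 22 members chosen by the naming rule, the following changed sign. Slc8a3, at 0.54 in null against WT and 0.45 in Het against WT, was among them. In Het against WT, the mesenchyme covariate gave -0.060 for Slc26a4, -0.27 for Slc26a7, -0.14 for Slc4a4, -0.29 for Slc8a1, -0.14 for Slc8a3 and 1.66 for Slc24a1. Leaving out the 3 mesenchyme-rich libraries gave -0.073 for Slc26a7, -0.17 for Slc4a4, -0.18 for Slc8a1, -0.13 for Slc8a3 and 2.02 for Slc24a1. limma-voom gave 0.16 for Slc24a1 and -0.0025 for Slc8a1, and the Y-linked covariate -0.00309 for Slc9a3r1. In null against Het, leaving out those libraries gave 0.018 for Slc26a4, 0.016 for Slc4a2 and -0.67 for Slc8a3, and Slc8a3 was -0.41 with the mesenchyme covariate, -0.11 with limma-voom and -0.034 with the replicate block. In null against WT, leaving them out gave -0.80 for Slc8a3 and 0.017 for Slc9a3r1. The Y-linked covariate gave 0.040 for Slc8a1.

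With an embryo left out, the log2 fold change of these named members ranged over both signs as follows. In null against WT it was -0.053 to 0.25 for Slc4a7, -0.15 to 0.090 for Slc8a1 and -0.22 to 0.97 for Slc8a3. In Het against WT it was -0.72 to 0.25 for Slc24a1, -0.074 to 0.24 for Slc26a7, -0.19 to 0.48 for Slc4a11, -0.017 to 0.19 for Slc4a4, -0.060 to 0.021 for Slc4a8, -0.064 to 0.17 for Slc8a1 and -0.031 to 0.053 for Slc9a3r1. In null against Het it was -0.19 to 0.013 for Slc26a4, -0.052 to 0.011 for Slc4a2, -0.20 to 0.070 for Slc8a1 and -0.67 to 0.39 for Slc8a3. The cause was not tested. Apart from fits without an embryo, 648 fold changes of named members kept their direction and side of the threshold, 23 changed sign, 15 came past the threshold and 7 fell short of it. Of the 20 other members reported, 12 changed sign in 45 of 660 such fold changes, 6 of them from a value beyond 0.25. Those 6 were of Slc4a1 and Slc26a2. Slc4a1 went from -0.76 to 0.80 with the mesenchyme covariate and 0.83 without the 3 libraries in Het against WT, from -0.30 to 0.41 and 0.93 in null against WT, and from 0.47 to -0.35 with limma-voom in null against Het. Slc26a2 went from 0.41 to -0.021 without the 3 libraries in null against Het. Slc9a5, at 0.24 in that comparison, was -0.057 with limma-voom, -0.022 with the replicate block, -0.34 with the mesenchyme covariate and -0.61 without the 3 libraries. With an embryo left out, 17 of the 20 changed sign in 53 of 360 fold changes, 5 of them from a value beyond 0.25. These were Slc26a2 (-0.026 in each comparison of null embryos, without null embryo 3), Slc24a4 (0.33 to -0.11 in null against Het, without null embryo 1) and Slc4a1 (0.44 without WT embryo 2 and 0.30 without null embryo 2, in null against WT). No scaling moved the median of all genes by over 0.1.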
